A study of Mus musculus with 60 samples.

Results

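The ATP-binding cassette (ABC) transporter genes were followed through lung, liver and forestomach of mice given benzo(ghi)perylene (BghiP). Genes were taken as members where the RefSeq accession of an array probe belonged to a symbol made of Abc, a subfamily letter from a to g and a number. This rule found 67 probes for 49 genes, out of 55681 probes and 20018 named genes on the array. The reference table holds 50 such symbols, and Abca16 had no probe. Where a gene had several probes, the probe with the brightest mean tissue signal stood for it. No expression difference was used to choose the members.

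ABC transporters are membrane proteins that use ATP to move lipids, bile constituents, drugs, conjugates and metals across membranes. In the liver, several of them sit in the canalicular membrane and form the export step of bile secretion. In the lung, Abca3 loads phospholipid into the lamellar bodies of alveolar type 2 cells, and in squamous epithelium Abca12 loads lipid into lamellar granules. The members of the E and F subfamilies carry the ATP-binding cassette but span no membrane and work with ribosomes.

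BghiP is a polycyclic aromatic hydrocarbon with 6 fused rings, tested here to ask how tissue transcripts respond to repeated oral exposure. Male Muta Mouse, a transgenic strain carrying a bacterial lacZ reporter, were about 10 weeks old and were gavaged daily for 28 days, and tissue was taken 72 h after the last dose. The groups were D0 (olive oil alone), D1 (6.25 mg/kg-bw/day BghiP in olive oil), D2 (12.5) and D3 (25), with 5 mice each, and every group carried the transgene and received the oil. Lung, liver and forestomach of the same 20 mice gave 60 two-colour arrays, on which tissue RNA was labelled with Cy5 and a universal mouse reference RNA, pooled from 11 mouse cell lines, with Cy3. Every value below is the log2 ratio of tissue to reference for 1 mouse, or a difference of such ratios, and errors are SD over mice for levels and SE of the fit for differences. All p-values rest on the spread of mice within groups, pooled over the groups of a fit. For a slope it is the spread around the fitted line. These are bulk tissues, so fewer cells of a type and less RNA per cell cannot be told apart.

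Each tissue was first checked against its own markers. The mean log2 ratio of 5 lung markers was 6.91 to 7.63 over the 20 lungs, that of 5 liver markers was 7.20 to 8.42 over the 20 livers, and that of 5 squamous epithelial markers was 3.64 to 4.77 over the 20 forestomachs, with all 5 genes above background on every array. The forestomach samples also carried markers of glandular stomach, the neighbouring part of the organ, at 0.24 to 7.53, with all 5 of those measured above background on 12 of 20 arrays. Liver markers in forestomach ran from 0.03 to 5.41, with all 5 above background on 11 arrays and none on 1. Of the 60 arrays, 4 stood apart from the others of their tissue. The lung of D0 mouse 1 had skeletal muscle markers at 5.75 (other lungs -0.88 to 0.55) and squamous markers at 3.86 (-0.51 to 0.09). The lung of D3 mouse 20 had liver markers at 5.05 (0.43 to 1.47). Forestomach of D0 mouse 2 had lung markers at 5.88 (0.59 to 2.17), and that of D0 mouse 5 had fat markers at 5.46 (1.00 to 3.91). Results were therefore also computed without these 4 arrays. Array slides differed as well: the share of probes well above background in forestomach ran from 24.6% to 50.7% over slides. Lung and forestomach shared 5 slides and liver filled 3 others, so that slide and tissue cannot be told apart in any contrast with liver. Each dose had its own array column on every slide, so that position and dose cannot be told apart.

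Promoter sequence, the 250 bases before the annotated start, was available for 37 of the 49 members from RefSeq (GRCm38.p6). Those of 7 members are shown because their genes carry the tissue patterns or the dose trend described below: Abcb11 and Abcc2 (canalicular export), Abcg5 and Abcg8 (sterol export), Abca3 (highest in lung), Abca12 (highest in forestomach) and Abcc10 (slope on dose in liver). Each reads 5′ to 3′ towards the gene, and capitals mark AGGTCA, the core motif of many nuclear receptors, and GCGTG, the core of the element bound by the aryl hydrocarbon receptor, both also as their reverse complements TGACCT and CACGC.
Abcb11, chr2:69342617-69342866, minus strand: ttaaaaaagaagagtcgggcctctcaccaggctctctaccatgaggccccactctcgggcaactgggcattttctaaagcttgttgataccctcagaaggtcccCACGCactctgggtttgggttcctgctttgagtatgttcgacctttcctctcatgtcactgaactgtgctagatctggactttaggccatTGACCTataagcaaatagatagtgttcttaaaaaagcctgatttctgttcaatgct
Abcc2, chr19:43782058-43782307, plus strand: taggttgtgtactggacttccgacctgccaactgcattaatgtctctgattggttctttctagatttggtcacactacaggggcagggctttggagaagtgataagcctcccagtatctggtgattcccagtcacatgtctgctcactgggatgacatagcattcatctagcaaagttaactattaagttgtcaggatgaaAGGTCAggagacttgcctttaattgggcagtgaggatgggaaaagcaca
Abcg5, chr17:84683012-84683261, minus strand: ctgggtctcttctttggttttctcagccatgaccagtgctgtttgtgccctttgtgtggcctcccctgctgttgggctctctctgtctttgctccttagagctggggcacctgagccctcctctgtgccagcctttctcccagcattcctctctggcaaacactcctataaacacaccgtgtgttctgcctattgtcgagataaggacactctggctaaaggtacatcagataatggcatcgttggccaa
Abcg8, chr17:84682871-84683120, plus strand: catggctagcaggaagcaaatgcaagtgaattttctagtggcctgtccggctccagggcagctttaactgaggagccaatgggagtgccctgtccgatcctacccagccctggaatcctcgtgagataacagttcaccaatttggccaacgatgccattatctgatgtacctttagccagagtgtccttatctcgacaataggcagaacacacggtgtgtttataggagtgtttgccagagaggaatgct
Abca3, chr17:24351773-24352022, plus strand: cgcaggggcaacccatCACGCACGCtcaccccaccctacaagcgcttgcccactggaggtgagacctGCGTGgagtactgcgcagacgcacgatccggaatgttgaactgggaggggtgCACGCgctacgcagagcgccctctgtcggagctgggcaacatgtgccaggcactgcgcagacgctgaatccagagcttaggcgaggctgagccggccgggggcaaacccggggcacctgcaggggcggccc
Abca12, chr1:71414911-71415160, minus strand: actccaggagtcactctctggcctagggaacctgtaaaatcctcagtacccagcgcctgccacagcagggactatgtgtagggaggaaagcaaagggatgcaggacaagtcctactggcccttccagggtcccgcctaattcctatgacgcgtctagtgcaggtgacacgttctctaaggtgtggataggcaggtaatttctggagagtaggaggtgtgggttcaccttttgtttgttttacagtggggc
Abcc10, chr17:46328024-46328273, minus strand: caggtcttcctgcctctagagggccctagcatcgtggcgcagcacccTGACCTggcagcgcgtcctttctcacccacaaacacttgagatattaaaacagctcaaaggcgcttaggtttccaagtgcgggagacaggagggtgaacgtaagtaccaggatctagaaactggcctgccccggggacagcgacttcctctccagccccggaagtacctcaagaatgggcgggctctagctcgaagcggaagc
AGGTCA on either strand was found in 5 of 37 members (Abcb11, Abcb6, Abcc2, Abcc10 and Abcg2) and in 14.0% of 32851 promoters. GCGTG was found in 11 of 37 members and in 28.2% of all promoters. A match is a description of the letters and not a binding site. Abcg5 and Abcg8 lie head to head with 109 bases between their starts, so that their printed windows share 109 bases and hold neither motif. Abca3 carries GCGTG at 4 places, of which 2 copies of the complement near the far end overlap by 1 base, and 21 CpG sites. The Abcb11 window holds 4 CpG sites and that of Abcc2 holds 1, against a median of 12 over the members and 6 over all promoters.

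In vehicle mice, the 4 genes of bile salt and bile lipid export and the conjugate pump Abcc2 were highest in liver, Abca3 and Abcg1 were among 5 members highest in lung, and Abca12 was among 5 highest in forestomach. Of the 42 members tested (well above background on at least 5 of 20 arrays of any tissue), 32 differed between at least 1 pair of tissues, where 59.7% of 33255 probes did. A call required a Benjamini-Hochberg adjusted p of at most 0.05 over all probes tested by limma and a difference of at least 1.5-fold. Called higher in liver than in both other tissues were 16 members (13.3% of probes), with 5 higher in lung than elsewhere (13.2% of probes) and 5 higher in forestomach (8.28% of probes). These counts are a description, because 8 tested members passed the filter through 1 tissue alone and those that were high there had to differ: Abcc2, Abcc6, Abcg5, Abcg8 and Abca6 through liver, Abca12 through forestomach, and Abca4 and Abcd2, which had no call, through lung. Without them 11 members were higher in liver and 4 in forestomach. Abca7 and Abcb9 were lower in liver than in both other tissues, Abcc3 was lower in lung than in both, and for Abcc9, Abcc10 and Abcf3 only the extreme tissues differed by a call. Another 7 members were not above background often enough to be tested in any tissue: Abca13, Abca14, Abca15, Abca17, Abcb5, Abcc12 and Abcg3.

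**Figure D1:**
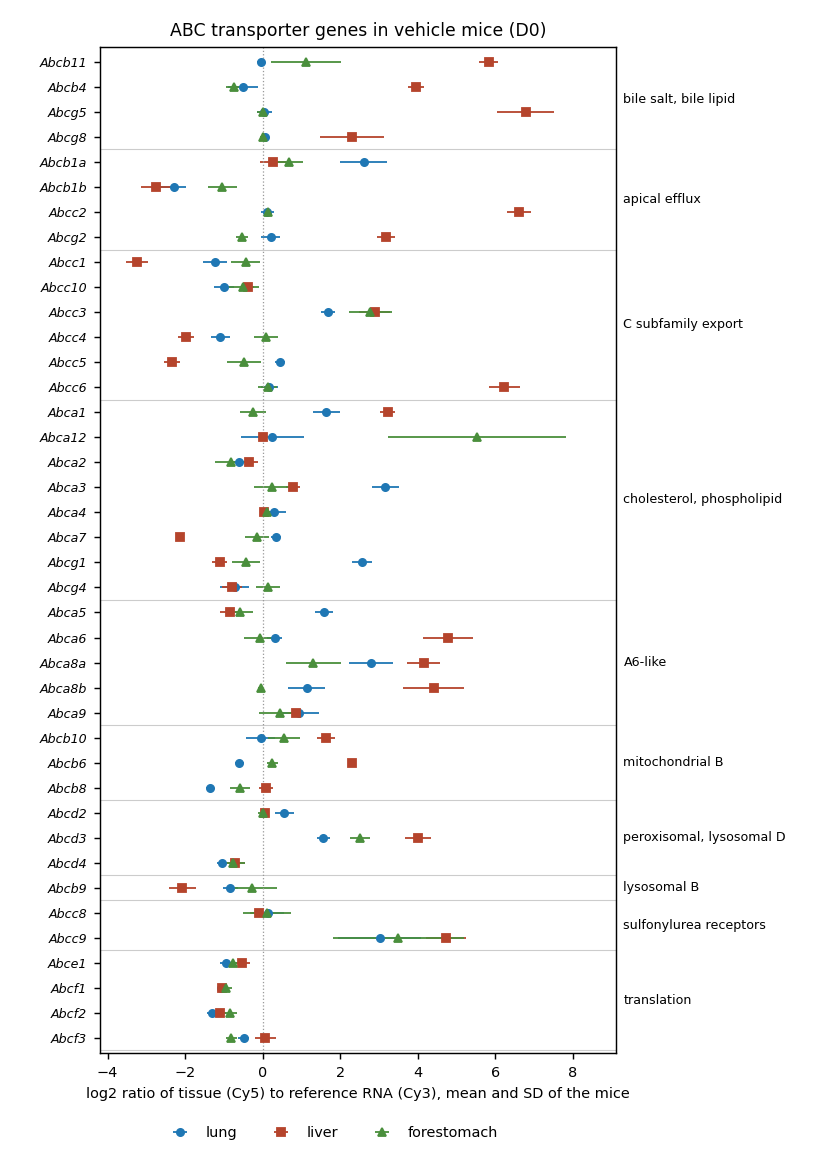
Mean log2 ratio of tissue to reference RNA in vehicle mice (x axis) for 40 of the tested members grouped by role (y axis), with 1 marker per tissue and bars for the SD of 5 mice (4 for Abcb1a and Abcc10 in forestomach, where the spot of mouse 4 was excluded). The liver markers of Abcg5, Abcc2, Abcc6 and Abcb11 sit between 5.83 and 6.78, far to the right of lung and forestomach, whereas Abca12 stands at 5.53 in forestomach alone.

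Between lung and liver, 28 of 42 members were called, 9 higher in lung and 19 lower, where 44.4% of 33255 probes were called, 25.4% higher in lung and 19% lower. The median difference of lung minus liver was -0.37 over the members and 0.06 over all probes. Between lung and forestomach, 20 members were called, 9 higher in lung and 11 lower, against 33.3% of probes, 18.8% higher and 14.5% lower, with medians of 0.03 and 0.02. Between liver and forestomach, 26 members were called, 17 higher in liver and 9 lower, against 39.2% of probes, 18.2% higher and 21% lower, with medians of 0.32 and -0.02. Without the 4 arrays that stood apart, the member counts were 28, 19 and 27. With Cy5 alone in place of the ratio they were 28, 18 and 26. The share of all probes called under these alternatives is not given here. For 16 members other probes of the same gene were on the array, and of 36 contrasts of such probes 31 had the sign of the printed probe and 30 had its call.

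The 4 genes of bile salt and bile lipid export were called higher in liver than lung and higher in liver than forestomach for 4 of 4, beside 19% and 18.2% of all probes, and Abcg5 and Abcg8 had passed the filter through liver alone. Abcb11, the bile salt export pump, measured 5.87, 5.54, 6.00, 6.11 and 5.61 in the 5 vehicle livers (mean 5.83 ± 0.25). Its lungs measured -0.10, -0.12, -0.02, 0.13 and -0.09, none well above background, and its forestomachs 0.98, 0.17, 0.34, 1.87 and 2.23. Liver values lay clear of both other tissues, and the forestomach values lay above those of every lung. Lung and liver differed with a limma adjusted p of 1.8e-21, and lung and forestomach with an adjusted p of 0.00381 (fitted -1.16), or at least 1.88-fold higher in forestomach. The call between lung and forestomach was lost without D0 mouse 5 (-0.87, adjusted p = 0.0530). Liver markers on the same forestomach arrays ran from 1.74 in mouse 5 to 3.2 in mouse 2. The highest Abcb11 value of each dose group in forestomach was on the slide of mice 5, 10, 15 and 20 (2.23, 1.76, 2.72 and 1.88), where the share of probes above background was also highest. The part of liver markers and of the slide in the value was not tested.

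Where no array of a group was well above background, the difference is only a bound, and a fitted difference of the log2 ratios is no measured fold. It was set from Cy5 after loess and Aquantile normalization, as the bright group over the array's own detection floor, and it is open to dye bias since no dyes were swapped. By this measure Abcb11 was at least 367-fold higher in liver than in lung. That bound exceeds the fitted difference of the log2 ratios (-5.87), which also contains the reference channel, and the bounds for Abcc6 given below exceed its fitted differences too. The reference signal of Abcb11 was above background on 20 liver arrays, 4 forestomach arrays and 0 lung arrays, although the same reference RNA was used throughout. The same was seen for Abcc6 (20, 1 and 0) and Abcc2 (19, 1 and 2). The part of this in the ratios was not tested, and Cy5 alone gave a lung minus liver difference of -8.72 for Abcb11, -6.93 for Abcc6 and -6.60 for Abcc2. The reference was above background on all 60 arrays for 28 of the 49 members and on fewer than 30 arrays for 18.

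Abcg5 and Abcg8 encode the partners of the canalicular sterol exporter. Abcg5 measured 7.65, 5.63, 6.99, 6.82 and 6.79 in liver (6.78 ± 0.73), against 0.04 ± 0.19 in lung and 0.00 ± 0.16 in forestomach, neither above background on any vehicle array. Liver was at least 57.3-fold higher than lung and at least 55.2-fold higher than forestomach, with adjusted p-values of 9.17e-33 and 6.92e-33 in limma. Since Abcg5 had passed the filter through liver alone, these p-values are a description. Abcg8 measured 3.29, 1.02, 2.38, 2.49 and 2.33 in liver and was at least 3.39-fold higher there than in lung. D0 mouse 2 gave the lowest liver value of both partners. Abcb4, which flips phosphatidylcholine into bile, measured 3.95 ± 0.21 in liver, -0.51 ± 0.38 in lung and -0.74 ± 0.21 in forestomach, and unlike the other members of the group it was above background in all 3 tissues. Its differences were -4.46 ± 0.17 for lung minus liver and 4.69 ± 0.17 for liver minus forestomach.

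The apical efflux pumps for drugs and conjugates split over the tissues. Abcc2, which exports glucuronide and glutathione conjugates into bile, measured 6.20 to 6.96 in liver (6.61 ± 0.31), 0.12 ± 0.17 in lung and 0.14 ± 0.08 in forestomach. It was at least 79.0-fold higher in liver than in lung (adjusted p = 2.03e-37), and the fitted liver minus forestomach difference was 6.46, with 1 of the 5 vehicle forestomachs above background. Abcc2 had passed the filter through liver alone and had to differ, so that its p-value is a description. Abcg2, a broad efflux pump of urate, porphyrins and planar drugs, was above background everywhere and followed the order liver (3.17 ± 0.23), lung (0.20 ± 0.25) and forestomach (-0.53 ± 0.15), with all neighbours called different. Abcb1a and Abcb1b are the mouse genes for P-glycoprotein, a pump of hydrophobic drugs, and they were highest in different tissues. Abcb1a measured 2.51, 2.38, 1.76, 3.12 and 3.23 in lung, clear of liver (0.27 ± 0.33) and of forestomach (0.93, 0.36, 0.34 and 1.06, with the spot of mouse 4 excluded as an outlier). Lung exceeded forestomach by 1.93 ± 0.24 (adjusted p = 2.67e-09). Abcb1b measured -0.91, -1.68, -0.80, -0.88 and -0.92 in forestomach, above every lung (-2.69 to -1.83), and lung minus forestomach was -1.26 ± 0.22 (adjusted p = 2.38e-06). Lung and liver did not pass the test for Abcb1b (0.45 ± 0.22, adjusted p = 0.0641).

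Markers of endothelium, a cell type in which P-glycoprotein is a known barrier transporter, had mean ratios of 3.21 to 4.62 in lung, 1.09 to 1.66 in liver and 0.37 to 1.49 in forestomach, the order of lung over the other tissues that Abcb1a also showed. Their part in the Abcb1a difference was not tested.

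Apart from Abcc2, described above with the apical pumps and lower in lung, 6 organic anion exporters of the C subfamily were tested. Between lung and liver 3 were called higher in lung and 3 lower, beside 25.4% and 19% of all probes. One of the lower, Abcc6, had passed the filter through liver alone and had to differ. Abcc6, whose product is needed for ATP release from liver cells, measured 6.59, 5.70, 6.23, 6.63 and 5.97 in liver and was above background on 0 vehicle lungs and forestomachs, so that liver was at least 111-fold over lung and at least 108-fold over forestomach by Cy5. The fitted differences of the log2 ratios, -6.05 for lung minus liver and 6.09 for liver minus forestomach, were smaller than these bounds and are no measured folds. A second Abcc6 probe gave smaller differences with the same signs and calls, -4.48 for lung minus liver and 4.46 for liver minus forestomach. Abcc3, a basolateral exporter of glucuronides, measured 2.88 ± 0.39 in liver and 2.78 ± 0.55 in forestomach, a difference of 0.10 ± 0.21 that did not pass the test, and 1.68 ± 0.19 in lung, with lung minus forestomach at -1.10 ± 0.21 (adjusted p = 1.45e-05). Abcc1 and Abcc4, exporters of glutathione conjugates and of cyclic nucleotides and bile acids, were highest in forestomach and lowest in liver. For Abcc1 the means were -0.44 ± 0.38, -1.23 ± 0.31 and -3.24 ± 0.28 in forestomach, lung and liver, and liver minus forestomach was -2.80 ± 0.16 (adjusted p = 4.52e-22). For Abcc4 they were 0.09 ± 0.30, -1.09 ± 0.24 and -1.98 ± 0.20, with lung minus forestomach at -1.18 ± 0.16 and liver minus forestomach at -2.07 ± 0.16. Abcc5, a cyclic nucleotide and organic anion exporter, was highest in lung (0.45 ± 0.13) and lowest in liver (-2.35 ± 0.20), a difference of 2.80 ± 0.14, and 2 of its other 3 probes repeated all 3 calls, whereas the remaining probe gave 0.40, 0.23 and -0.18 and no call. Abcc10 differed by a call only between lung (-1.30 to -0.61) and liver (-0.51 to -0.20), and without D0 mouse 5 that difference fell under 1.5-fold (-0.56).

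The lipid transporters of the A and G subfamilies differed among themselves in the tissue where they were highest. Abca3, the phospholipid transporter of surfactant storage, measured 2.82, 3.21, 2.83, 3.62 and 3.33 in lung, clear of liver (0.57 to 1.06) and forestomach (-0.27 to 0.93). The differences of lung were 2.38 ± 0.16 over liver and 2.92 ± 0.16 over forestomach (adjusted p = 9.69e-19 and 2.38e-21). The highest forestomach value, 0.93, and the lowest lung value, 2.82, came from arrays that stood apart by other markers (mice 2 and 1). Abcg1, which passes cholesterol to high density lipoprotein and is high in alveolar macrophages, measured 2.14, 2.63, 2.56, 2.71 and 2.75 in lung, -1.11 ± 0.19 in liver and -0.44 ± 0.35 in forestomach. Lung exceeded liver by 3.66 ± 0.14 and forestomach by 2.99 ± 0.14. Abca1, which lipidates apolipoprotein A-I, had a different order, with liver at 3.22 ± 0.20, lung at 1.64 ± 0.35 and forestomach at -0.26 ± 0.33, and all neighbours were called. Abca7, a phospholipid exporter, was low in liver (-2.13 ± 0.11) and near the reference level in lung (0.33 ± 0.13) and forestomach (-0.16 ± 0.31). Abca5 was higher in lung (1.58 ± 0.24) than in liver by 2.43 ± 0.14 and than in forestomach by 2.16 ± 0.14.

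Abca12 had its highest level in forestomach. Its vehicle forestomachs measured 6.10, 2.53, 3.84, 7.18 and 8.00, the widest range of any member, and all lay above every lung and liver. Lungs of mice 2 to 5 measured -0.25 to 0.19 and the lung of mouse 1, the array with squamous markers, measured 1.66. Forestomach was at least 30.0-fold higher than liver, where no array was above background, and lung minus forestomach was -5.29 ± 0.63 (adjusted p = 4.88e-10), or -5.82 without the arrays that stood apart, with 1 of the 5 vehicle lungs above background. Since Abca12 had passed the filter through forestomach alone, this p-value is a description. Abcg4, a sterol exporter related to Abcg1, was also highest in forestomach but by less (0.14 ± 0.32 against -0.72 ± 0.38 in lung). A second Abcg4 probe repeated the call between lung and forestomach (-0.68) but not that between liver and forestomach (-0.44, against -0.93).

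In the A6-like cluster of the A subfamily, whose members handle lipids and whose transport roles are less settled, 3 of 5 tested members were called lower in lung than in liver and 1, Abca5, was called higher, by 2.43 as given above, beside 19% and 25.4% of all probes. Abca6, one of the 3 called lower, had passed the filter through liver alone and had to differ. It measured 5.56, 3.75, 4.88, 4.78 and 4.91 in liver and was at least 15.0-fold higher there than in forestomach. Abca8a and Abca8b were ordered liver, lung, forestomach with all neighbours called, at 4.15 ± 0.42, 2.79 ± 0.58 and 1.31 ± 0.72 for Abca8a and at 4.41 ± 0.78, 1.13 ± 0.49 and -0.05 ± 0.07 for Abca8b. Forestomach Abca8a followed the slide in all 4 dose groups, highest for mice 5, 10, 15 and 20 (2.19, 2.05, 2.27 and 2.3) and lowest for mice 3, 8, 13 and 18 (0.24, -0.05, 0.14 and 1.09), and its lung values had the same extremes. Of 35 members tested in each tissue, 2 had both extremes on these slides in every dose group in forestomach (Abca8a and Abcc9) and 3 in lung (Abca8a, Abca9 and Abcc9), and the part of the slide in their values was not tested. Lung and forestomach of a mouse lay on the same slide, and with the slide as a block in these tissues alone Abca8a lung minus forestomach was 1.49 (adjusted p = 1.94e-08). Abca9 measured 0.94 ± 0.50, 0.85 ± 0.21 and 0.45 ± 0.54 in lung, liver and forestomach, with no call.

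Among intracellular members, the mitochondrial transporters Abcb6, Abcb8 and Abcb10 of the B subfamily were called higher in liver than in lung and than in forestomach. Abcb6, tied to porphyrin transport, measured 2.29 ± 0.09 in liver, 0.24 ± 0.14 in forestomach and -0.60 ± 0.12 in lung, with a lung minus liver difference of -2.89 ± 0.13. Abcb10 and Abcb8 differed in that contrast by -1.69 ± 0.20 and -1.44 ± 0.25. The liver minus forestomach call of Abcb8 (0.66 ± 0.25) was lost without D0 mouse 1 (adjusted p = 0.0658) or without D0 mouse 4 (adjusted p = 0.0515), and a second Abcb8 probe gave 0.56 and no call there, nor for lung minus forestomach (-0.54, against -0.78). Abcd3, a peroxisomal carrier of branched and bile acid precursors, was highest in liver (4.01 ± 0.34, then 2.51 ± 0.26 in forestomach and 1.56 ± 0.16 in lung). Abcd2 and Abcd4, of peroxisome and lysosome, had no call. Abcb9, a lysosomal peptide transporter, was lower in liver (-2.07 ± 0.35) than in lung (-0.83 ± 0.20) and forestomach (-0.28 ± 0.65). Among the ribosome-linked Abce1, Abcf1, Abcf2 and Abcf3, only Abcf3 had a call, liver minus forestomach 0.88 ± 0.12, and the 3 tissue means of Abcf1 lay between -1.07 and -0.94.

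The sulfonylurea receptors Abcc8 and Abcc9 are regulatory subunits of ATP-sensitive potassium channels and not known as pumps. Abcc9, the form of muscle and vessels, measured 3.97, 2.95, 0.87, 4.41 and 5.28 in forestomach, 3.01 ± 1.07 in lung and 4.72 ± 0.51 in liver. Lung minus liver was -1.71 ± 0.61 (adjusted p = 0.0122), a call lost without D0 mouse 3 (-1.29, adjusted p = 0.0614). Liver minus forestomach was 1.23 ± 0.61 (adjusted p = 0.0804) and passed with the mouse as a block (adjusted p = 0.0192). Forestomach values followed the slide in all 4 dose groups: mice 3, 8, 13 and 18 shared a slide and had the lowest value of their group (0.87, 2.36, 2.55 and 2.14), and mice 5, 10, 15 and 20 shared another and had the highest (5.28, 5.22, 6.14 and 5.89). Those slides also had the lowest and highest share of probes above background in forestomach, 24.6% and 50.7%, and the part of this in the value was not tested. Abcc8 measured 0.13 ± 0.43 in lung, -0.10 ± 0.24 in liver and 0.11 ± 0.63 in forestomach, with no call.

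The likeness of patterns was described by Pearson correlation over the 12 means of tissue and dose groups, which share the tissue differences above. The members most like Abcb11 were Abcc2 (0.985), Abcb6 (0.984) and Abcg5 (0.984). Those most like Abca3 were Abcd2 (0.967), Abca5 (0.949) and Abcb1a (0.945), and those most like Abca12 were Abcg4 (0.958), Abcb1b (0.957) and Abcc4 (0.909). Abcd2 was above background on only 2 of the vehicle lungs.

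One lung of the highest dose carried liver-high members. On the array of D3 mouse 20, 8 of 49 members had their highest lung value, and 6 of these were among the 16 members highest in liver. The share of all probes with their highest lung value on that array is not given, so that these counts are a description. Abcb11 measured 1.80 against -0.26 to 0.13 on all other lungs, Abcc6 1.19 against -0.08 to 0.50, Abcg5 0.75 against -0.19 to 0.34 and Abcc2 0.60 against -0.27 to 0.28. Liver markers on that array were at 5.05. It lay on the lung slide with the highest share of probes above background, 58.4%, and the part of the slide in these values was not tested. Of those 4 genes, 0 were above background on enough lungs to be tested by dose.

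**Figure D2:**
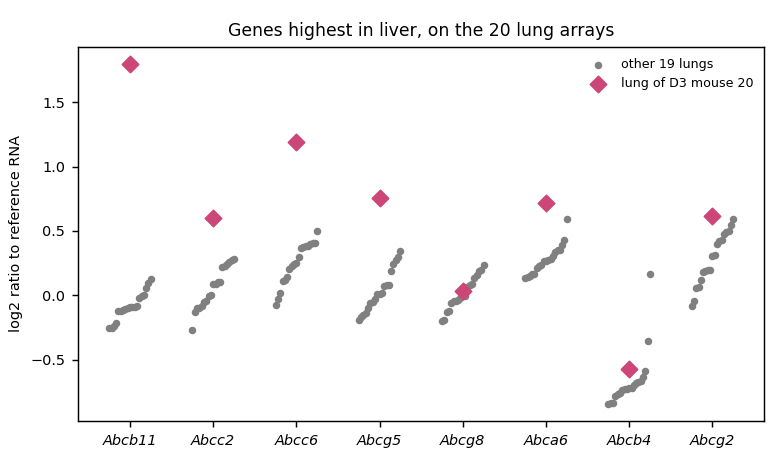
Log2 ratio to reference RNA (y axis) on the 20 lung arrays for 8 genes that are highest in liver (x axis), with the lung of D3 mouse 20 as a diamond and the other lungs as grey points sorted by value. The diamond lies above all grey points for Abcb11 (1.80), Abcc6 (1.19), Abcg5 (0.75), Abca6 (0.71), Abcc2 (0.60) and Abcg2 (0.62), and among them for Abcg8 and Abcb4.

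By dose, no member passed the call at any dose in any tissue, and 1 member, Abcc10 in liver, had a slope on dose that passed. In lung, 0 of 35 tested members were called at D1, D2 or D3, where 0% of 31022 probes were called at each dose. In liver, 0 of 39 were called at each dose, with 0% of 25893 probes called, and in forestomach 0 of 35, with 0% of 25070. Members with an unadjusted p under 0.05 in limma numbered 0, 1 and 0 in lung at D1, D2 and D3, 0, 1 and 6 in liver and 3, 1 and 1 in forestomach. The 6 in liver at D3 are 15.4% of members beside 12.1% of all liver probes, and the 3 in forestomach at D1 are 8.57% beside 9.37%. An F statistic with shuffled residuals also called 0 members at every dose, a count given without the share of all probes under that statistic. The 3 doses of a tissue share the same 5 vehicle arrays. The median SE of a member's difference was 0.13 in lung, 0.13 in liver and 0.20 in forestomach, and the number of arrays limits the precision.

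**Figure D3:**
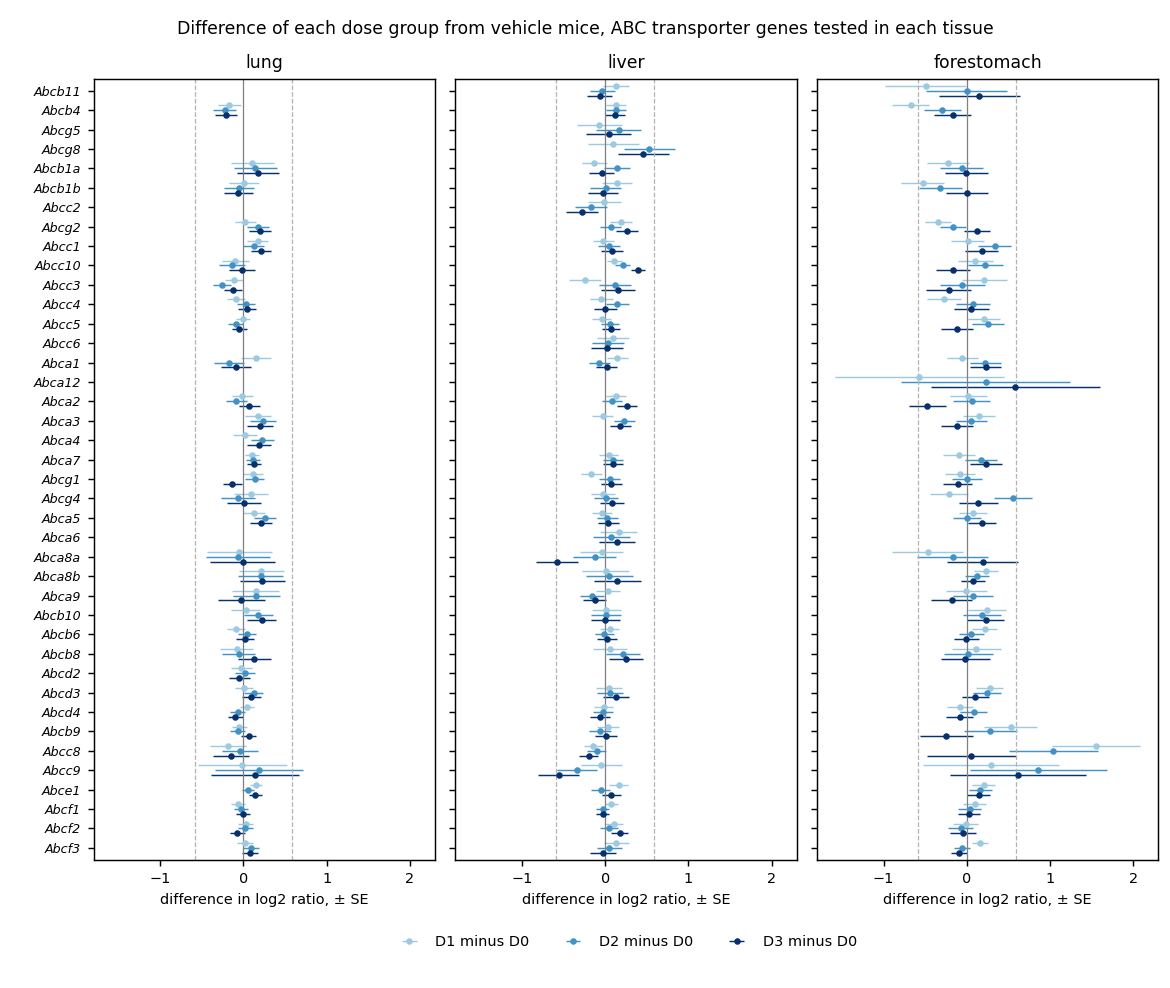
Difference in log2 ratio between each dose group and vehicle (x axis, bars for the SE of the fit) for the same 40 members where tested in each tissue (y axis, 1 panel per tissue), with light to dark points for D1, D2 and D3 and dashed lines at 1.5-fold. Most points sit within the dashed lines, and Abcc8 in forestomach at D1 (1.55) and D2 (1.04) lies farthest out to the right.

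Abcc10, an exporter of amphipathic anions and of some drugs, was the member with the lowest p at D3 in liver. Its livers measured -0.20, -0.44, -0.51, -0.48 and -0.21 at D0, -0.41, -0.30, -0.17, -0.16 and -0.26 at D1, -0.22, -0.30, -0.16, -0.01 and -0.10 at D2, and 0.10, -0.09, 0.11, 0.13 and -0.13 at D3. All 5 values at D3 lay above all 5 at D0, and the means went from -0.37 through -0.26 and -0.16 to 0.02. The D3 difference was 0.39 ± 0.09 (limma adjusted p = 0.113, or 0.0506 with the slide as a block), below 1.5-fold. The slope over the 4 doses was 0.0156 ± 0.00319 log2 units per mg/kg-bw/day (adjusted p = 0.0393), or 0.39 ± 0.08 over the whole range of 25 mg/kg-bw/day. A slope was called by its adjusted p alone. Slopes were called for 62 of 25893 liver probes, 0.239%, and for 0% of the probes in lung and in forestomach. The call for Abcc10 was lost in 10 of the 20 fits that left out 1 mouse: D0 mice 2, 3 and 5, D1 mice 6 and 7 and all 5 mice of D3, with the slope between 0.0146 and 0.0172 and an adjusted p of up to 0.114. Lung Abcc10 means were -1.0, -1.10, -1.14 and -1.02 and forestomach means -0.50, -0.40, -0.28 and -0.67 from D0 to D3, with no call.

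**Figure D4:**
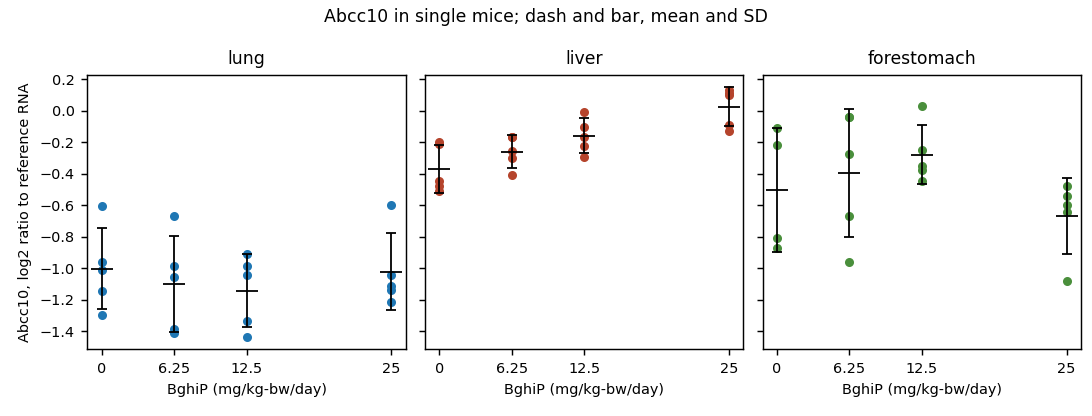
Abcc10 log2 ratio to reference RNA (y axis) in single mice against the BghiP dose in mg/kg-bw/day (x axis), 1 panel per tissue, with the dash and bar giving mean and SD. The liver points move from a mean of -0.37 at D0 to 0.02 at D3, and lung and forestomach show no such order.

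With the slide as a block, the slope in liver was called for 2 of 39 members beside 2.61% of liver probes: Abcc10 (0.0158, adjusted p = 0.0188) and Abca8a (-0.0274, adjusted p = 0.0418, against -0.0238 and 0.241 without the block). The same block called 0.306% of lung probes and 0% of forestomach probes by slope, and 0.0677%, 0.0927% and 0% of probes at D3 in lung, liver and forestomach, with 0 members in each. Abca8a measured 4.41, 3.62, 4.11, 3.92 and 4.70 in liver at D0 and 4.02, 3.84, 3.57, 3.11 and 3.32 at D3, overlapping ranges that differed by -0.58 ± 0.26 (adjusted p = 0.376). Abcc9 had a difference of like size, -0.56 ± 0.24 (adjusted p = 0.366), with D0 at 4.72 ± 0.51 and D3 at 4.16 ± 0.34.

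The D3 differences in liver were small for most members, and none was called. Counting all 39 tested members, those just described included, the difference was above 0 for 28, beside 49.9% of 25893 liver probes, with a median of 0.07 against 0.00 over all probes tested. These signs were not tested as a group. Abca2 differed by 0.26 ± 0.12 (adjusted p = 0.385). Abcg2 measured 2.90 to 3.54 at D0 and 3.11 to 3.68 at D3, a difference of 0.26 ± 0.13 (adjusted p = 0.415) with overlapping ranges. Of the other pumps that carry conjugates, Abcc2 differed by -0.28 ± 0.20, Abcc3 by 0.16 ± 0.21 (one D3 spot, of mouse 18, excluded as an outlier) and Abcc4 by 0.00 ± 0.14. Abcb1a (-0.04 ± 0.15) and Abca1 (0.02 ± 0.13) were close to 0.

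In lung, the largest D3 difference of any of the 35 members was 0.23 and the lowest -0.21, with a median of 0.05. The lowest p-values belonged to Abce1, the ribosome recycling factor (0.14 ± 0.07), Abcc1 (0.21 ± 0.12) and Abca5 (0.21 ± 0.13), each with an adjusted p of 0.998. Abcg2 differed by 0.19 ± 0.13, with its highest D3 value, 0.62, on the array of mouse 20. The remaining conjugate and lipid exporters gave 0.17 ± 0.26 for Abcb1a, -0.13 ± 0.11 for Abcc3, 0.05 ± 0.11 for Abcc4 and -0.09 ± 0.18 for Abca1.

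The largest dose difference of any member was that of Abcc8 in forestomach, where glandular stomach markers also varied between arrays. Abcc8 measured 0.06, 0.70, 0.78, -0.60 and -0.40 at D0 and 0.02, 2.64, 0.97, 2.79 and 1.87 at D1, a difference of 1.55 ± 0.53 (unadjusted p = 0.00896 in limma, adjusted p = 0.506). A second Abcc8 probe gave a smaller difference at D1, 0.45 ± 0.21 (adjusted p = 0.526), and 0.41 at D2 against 1.04. The glandular marker level of the same arrays was 0.93, 6.26, 5.42, 1.07 and 0.92 at D0 and 1.36, 6.99, 5.78, 7.53 and 7.06 at D1. The arrays with a high glandular level also had the higher Abcc8 in both groups. At D2 Abcc8 measured -0.14, 2.20, 2.46, 0.84 and 0.37 with glandular levels of 0.72, 6.70, 6.33, 6.35 and 2.10. At D3 it measured -0.25, -0.13, 0.14, 0.88 and 0.17 (mean 0.16 ± 0.44) with glandular levels of 4.19, 0.24, 0.54, 6.29 and 3.64. The lowest Abcc8 at D3 thus lay on the array with a glandular level of 4.19. The Abcb4 difference at D1 was -0.67 ± 0.22 (adjusted p = 0.506), with -0.81, -1.59, -1.03, -2.07 and -1.58 at D1, and that of Abcg2 was -0.35 ± 0.16. The highest Abcb4 value at D0, -0.54 in mouse 3, lay on an array with a glandular level of 5.42. Abca12 was 2.53 and 3.84 on the 2 vehicle arrays with a high glandular level and 6.10, 7.18 and 8.00 on the other 3, but treated arrays with a high level did not all have low Abca12, with 7.46 in mouse 10, 6.79 in mouse 14 and 5.94 in mouse 19. The Abcc9 differences were 0.86 ± 0.82 at D2 and 0.62 ± 0.82 at D3, with values that followed the slide as given above. The part of glandular stomach in these values was not tested.

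**Figure D5:**
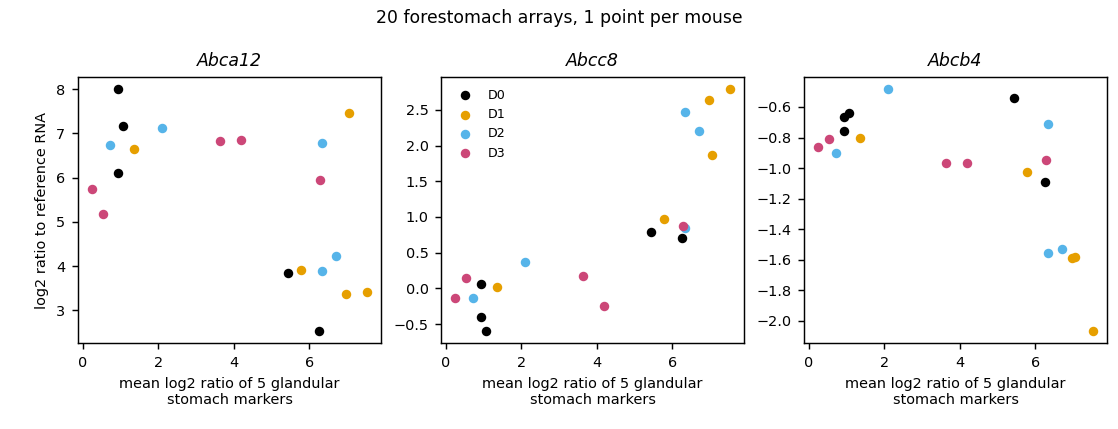
Log2 ratio of Abca12, Abcc8 and Abcb4 (y axes) against the mean log2 ratio of 5 glandular stomach markers (x axis) on the 20 forestomach arrays, 1 point per mouse coloured by dose group. Abcc8 is highest, at 2.79, and Abcb4 lowest, at -2.07, on the array with the highest glandular level, 7.53 in D1 mouse 9, and the lowest Abca12 value, 2.53, lies at 6.26, although Abca12 reaches 7.46 at a level of 7.06.

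At D3 in forestomach the lowest p belonged to Abca2, a lysosomal sterol transporter, at -0.48 ± 0.22, with D3 values of -1.38, -1.11, -0.91, -1.47 and -1.59 that overlapped the vehicle range of -1.21 to -0.15. Abca1 and Abca7 both differed by 0.23, with SEs of 0.18 and 0.19. Abcc3 differed by -0.22 ± 0.27, Abcg2 by 0.12 ± 0.16, Abcc4 by 0.06 ± 0.21 and Abcb1a by -0.01 ± 0.26, and the adjusted p was 1.00 for each.

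The D3 change was then compared between tissues. It was called different for 0 of 42 members in each of the 3 pairs of tissues, where 0% of 33255 probes were called. Unadjusted p-values under 0.05 in limma numbered 0 for lung against liver, 2 for lung against forestomach and 2 for liver against forestomach (2.96%, 2.06% and 4.26% of all probes), and shuffled residuals were not run for this comparison. Abca2 had the lowest of these in limma, with a liver minus forestomach difference of 0.74 ± 0.23 (adjusted p = 1.00, or 0.818 with the mouse as a block). Abcc10 followed in that contrast at 0.56 ± 0.22 (adjusted p = 1.00). The other pair were Abca4 (0.39 ± 0.15) and Abca2 (0.55 ± 0.23) for lung minus forestomach.

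The wider transport pathway was counted in vehicle mice by the same call. Of 9 tested uptake and exchange carriers for bile acids, organic anions and cations (10 listed), 8 were called lower in lung than in liver and 8 higher in liver than in forestomach, beside 19% and 18.2% of all probes. A gene that passed the filter through liver alone had to differ, and such genes were not counted apart here. The counts of carriers and of the receptors below are therefore a description. Slco1b2, an anion uptake carrier of hepatocytes, measured 10.55 ± 0.12 in liver, 0.12 ± 0.14 in lung and 0.74 ± 0.60 in forestomach. For Slc10a1, the sodium-dependent bile acid uptake carrier, both probes carried the same accession and disagreed in direction. The brighter probe, which entered the count, read 2.93 ± 0.36 in lung and 0.63 ± 0.10 in liver, and the other read 0.07 ± 0.22 in lung and 6.68 ± 0.51 in liver, so that no direction is given for this gene. Among 11 receptors and factors that set transporter levels, 8 were called lower in lung than in liver and 3 higher, beside 19% and 25.4% of all probes. Nr1h4, the bile acid receptor, measured 5.20 ± 0.45 in liver, -1.42 ± 0.45 in lung and -0.85 ± 0.72 in forestomach, and Nr1i3, the constitutive androstane receptor, measured 6.17 ± 0.29, 0.00 ± 0.11 and -0.09 ± 0.07. Ahr, the receptor that binds polycyclic aromatic hydrocarbons, ran the other way, at 2.06 ± 0.14 in lung, 1.00 ± 0.29 in liver and -0.32 ± 0.22 in forestomach, with lung over liver by 1.06 ± 0.13, while a second Ahr probe gave 0.11 and no call. None of the carriers or receptors tested in a tissue was called at any dose. Of ABC genes that go by other symbols, Tap2, part of the peptide transporter of antigen presentation, and Cftr, the chloride channel, were called higher in lung than in liver (1.00 ± 0.17 and 1.09 ± 0.21), while Tap1 was not called in that contrast (-0.58 ± 0.21).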

How the data were processed

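Agilent two-colour arrays were scanned by the authors, and spot intensities of both channels were deposited as made by Feature Extraction 10.7.3.1, with an array design annotated on mm9, per the file headers. The authors also deposited log2 ratios of tissue to reference for each array. These correlated at 0.992 to 0.999 with the ratios used here and served as an alternative, and no column was left without a sample (0).

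The deposited Cy5 and Cy3 intensities were made into log2 ratios by loess within each array, without background subtraction. Control spots (3671 of 62976) and outlier-flagged values (0.46%) were left out, spots of a probe were averaged, and 0 values were saturated. Probes were named through RefSeq accessions (26413 of 55681, or 47.4%, had a symbol). A probe was tested where it was well above background on at least 5 of the 20 arrays of a tissue. Moderated tests in limma 3.58.1 (R 4.3.3) were fitted over all such probes, per tissue for doses and slopes and over the 12 groups of tissue and dose for tissue contrasts and their interactions with D3, with Benjamini-Hochberg adjustment. A difference was called at an adjusted p of at most 0.05 and 1.5-fold or more, and a slope at that adjusted p. The fits were tested on simulated data. Python 3.11.15, pandas 2.3.3 and matplotlib 3.10.9 made the tables and plots.

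The members and gene lists were chosen with earlier results of these data known. In full were described the 5 called members with the largest difference in each direction and tissue contrast whose mice did not overlap, the 3 with the lowest p at D3 in each tissue, and Abcb1a, Abcg2, Abcc2, Abcc3, Abcc4 and Abca1 by dose. Other members were placed by role, and 2 members that enter the counts are not reported here by name, value or plot. The 3 tissues of a mouse number came from 1 animal, so the mouse was tried as a block. Deviations of the same mouse correlated at a median of 0.07 for lung with liver, 0.27 for lung with forestomach, which share slides, and 0.01 for forestomach with liver. Alternatives were normexp background correction (offset 50), processed signals, the deposited ratios, no filter or a strict one, trended and robust variances, all probes of a gene, slide and mouse blocks, each mouse left out, an F statistic with 100 shufflings, tissues over all 4 doses and Aquantile scaling. The number of arrays limits the precision.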

Additional observations from a re-analysis of the deposited data

Results flagged for a closer look

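The spread within groups was examined for the 24 members chosen by the rule for named genes or by a called slope, not for all 42 tested. In 11 of their 244 groups of 5 values (or 4), the highest or lowest mouse stood away from the rest by more than Dixon's critical share of the group's range (0.71 for 5 values). Chance gives about 1 in 20 such groups. In liver these were Abca3 in D2 mouse 12 (0.58, nearest other value 1.02), Abcc3 in D1 mouse 6 (2.95, nearest 2.62), Abcc9 in D0 mouse 2 (3.83, nearest 4.81) and Abce1 in D1 mouse 9 (-0.014, nearest -0.39). In lung they were Abcc10 in D3 mouse 18 (-0.60, nearest -1.05) and Abcc4 in D3 mouse 20 (-0.79, nearest -1.07). In forestomach they were Abca1 in D2 mouse 15 (0.39, nearest -0.05), Abcb1b in D0 mouse 2 (-1.68, nearest -0.92), Abcc10 in D3 mouse 19 (-1.08, nearest -0.64), Abcc3 in D3 mouse 16 (2.31, nearest 2.56) and Abcg1 in D1 mouse 9 (-1.10, nearest -0.48).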

How the results depend on the processing

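Member counts by tissue moved by less than 1.5 times under every alternative run. With 1 mouse left out they ran from 28 to 29 for lung against liver, 19 to 23 for lung against forestomach and 25 to 28 for liver against forestomach, and 0 members were called at any dose or in any interaction. The liver slope was called for 0 to 1 members with 1 mouse left out and for 2 with the slide as a block, and the cause was not tested. With the mouse as a replicate block, the tissue counts were 28, 20 and 27, the last gaining Abcc9, and interactions stayed at 0. Tissue calls lost with 1 vehicle mouse left out were Abcb11 for lung against forestomach without D0 mouse 5 (-0.87), Abcg1 for liver against forestomach without D0 mouse 2 (-0.56), Abcb10 for lung against forestomach without D0 mouse 5 (-0.56), Abcc10 for lung against liver without D0 mouse 5 (-0.56), Abcc9 for lung against liver without D0 mouse 3 (-1.29) and Abcb8 for liver against forestomach without D0 mouse 1 (0.61) or 4 (0.64). Chosen after seeing the data were Cy5 alone (28, 18 and 26) and the fits without the 4 arrays that stood apart (28, 19 and 27). Cy5 alone lost Abcc10 for lung against liver (-0.56), Abcb10 and Abcb8 for lung against forestomach (-0.57 and -0.64), and Abcg1 and Abcb8 for liver against forestomach (-0.55 and 0.60), and gained Abcf3 for lung against liver (-0.75) and Abca2 and Abcc9 for liver against forestomach (0.75 and 1.10). Without the 4 arrays, Abcb8 and Abcb10 lost the call for lung against forestomach (-0.69 and -0.47) and Abca7 gained it (0.63), while for liver against forestomach Abcg1 lost it (-0.53) and Abca3 and Abcc9 gained it (0.82 and 1.64). Processed signals also lost Abcg1 there (-0.57) and gained more calls than they lost. Among those gained were Abcd2 for lung against liver (1.84) and lung against forestomach (1.98) and Abca4 for lung against liver (1.35). Abca2 and Abcc9 were gained for liver against forestomach (1.03 and 1.30). With tissues compared over all 4 doses, Abcc8 was among the members gained, for lung against forestomach (-0.73) and liver against forestomach (-0.98). Signal over background limits the lung and forestomach levels of Abcb11, Abcc2, Abcc6, Abcg5 and Abcg8.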
